A study of Homo sapiens with 3 samples.

Results

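The enzymes of glycolysis and of the citric acid cycle were examined in HT-29 cells, an established human colon adenocarcinoma line of epithelial origin, after exposure to interferon-γ (IFN-γ). The members were 40 genes listed by symbol, covering glycolysis, lactate dehydrogenase, the entry of pyruvate and most steps of the cycle, of which 39 could be measured among 11963 genes in all. FH, the fumarase gene, was not measured because no probe set named it alone. Each gene was read from its brightest probe set, a group of short oligonucleotides on the array that report 1 transcript or several related ones. All 3 arrays came from cultures of 1 group. The cells had been plated at 50000 per cm2 for 24 h and then received 200 U/ml IFN-γ for 24 h, and the series calls the 3 cultures biological replicates. Untreated cells were not analysed here, so each value is a level after treatment and says nothing of the response to IFN-γ.

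Glycolysis splits glucose to pyruvate in the cytosol and yields ATP without oxygen. Pyruvate is either reduced to lactate by lactate dehydrogenase or carried into mitochondria, where the pyruvate dehydrogenase complex turns it into acetyl-CoA for the citric acid cycle, whose reactions feed electrons to respiration. Many steps have isozymes encoded by separate genes, some made in most tissues and others mainly in muscle, liver, brain, blood cells or testis. Carcinoma cells are known for high glucose uptake and lactate release even with oxygen present, and the hypoxia-inducible factor HIF-1 and the transcription factor MYC are known activators of glycolytic genes.

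The names of the probe sets had to be re-ordered before use, because under the deposited order the signals of probe sets of the same gene were only weakly related. Across 4310 genes with several probe sets, the log2 signals of a pair correlated with r = 0.19 as deposited and with r = 0.60 in the order used here, across genes, which are not independent replicates. For the 19 members with several probe sets the values were -0.0014 and 0.51. Rank correlations for these members were -0.05 as deposited and 0.23 in the order used. With all names displaced uniformly, r was 0.46 and the rank correlation 0.26. For the members alone, the check hardly separates the order used from the uniform one. A stretch of 2307 probe sets, from which 17 of the 39 members were read, sits 1 row further from its deposited name than the rest. Over 687 of these probe sets, r with other probe sets of the same gene was 0.45 at that displacement, 0.11 with 1 row less and 0.19 with 1 row more. Every gene value below depends on this order.

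A gene counted as detected when its log2 signals exceeded a background limit set on each array. The excess was judged against the spread of the replicates, moderated over all genes. The limit was the 95th percentile of 67 measured genes that are restricted to other tissues, and it was a signal of 210.1, 180.2 and 174.9 on the arrays of replicates 1, 2 and 3. Of all 11963 genes, 43.0% passed limma's one-sided test at an adjusted p under 0.05, and 45.6% lay above the limit on 3 of 3 arrays. The median signal of the arrays ran from 137 to 144, while the share of all signal in the 100 brightest was 11.5%, 12.6% and 15.5% for replicates 1, 2 and 3. Of 11 markers of colon epithelium 7 were detected, among them EPCAM and KRT20, while CDX1, CDX2, CDH17 and GPA33 were not. Of the measured markers of other cells, COL1A1 was detected among 7 of fibroblasts and LYZ among 4 of myeloid cells, and none was detected among 5 of endothelium, 6 of T and NK cells, 3 of B cells and 5 of skeletal muscle. In limma's test 0 of these 19 genes also passed at an unadjusted p under 0.05.

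Most of the enzymes were detected, and every step with a measured member had at least 1 detected gene, except the carboxylation of pyruvate by PC. Of 39 measured members 31 were detected (79.5%), and the same 31 lay above the limit on 3 of 3 arrays. The median member lay 3.40 log2 units over the limit, against 0.04 for all genes tested. In bulk RNA, fewer cells making a transcript and less of it per cell cannot be told apart. The 8 that did not pass were HK3, ALDOC, PGAM2, ENO2, ENO3, PKLR, LDHC and PC. Apart from PC, each of these belongs to an enzyme family with another detected member. The count was 31 when any 1 replicate was left out, and leaving out probe sets whose suffixes mark cross-hybridising (_x_at) or shared (_s_at) designs gave 18 detected of 23 measured.

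**Figure D1:**
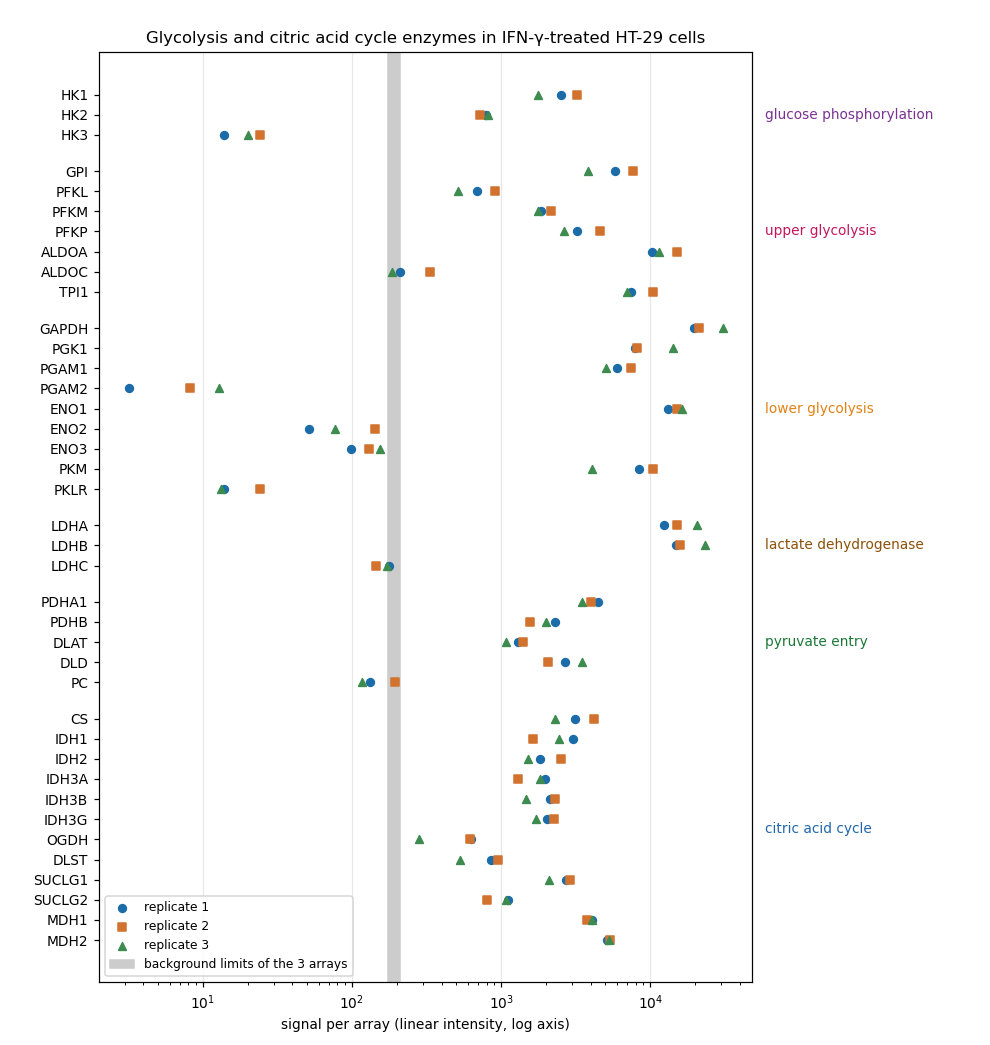
Signal of each measured member on each array (linear intensity on a log axis), in order of the pathway, with replicates 1, 2 and 3 as circles, squares and triangles. The grey band spans the background limits of the arrays, 174.9 to 210.1; 31 members lie to its right on every array, and ALDOC, LDHC and PC lie at or near it.

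Signals are given below in the order of replicates 1, 2 and 3, as linear intensity per probe set, and levels of different probe sets are not ranked against each other. Of the hexokinases, which trap glucose in the cell by phosphorylation, HK1 and HK2 were detected and HK3 was not. HK1, the form found in most tissues, had signals of 2507, 3244 and 1762 and lay 3.69 ± 0.20 log2 units (SE, n = 3) over the limit. HK2, the inducible form of muscle and many tumours, had 792, 720.4 and 814 and lay 2.04 ± 0.18 (SE, n = 3) over it. The SEs given with distances from the limit are limma's, which borrow variance from other genes, whereas SDs are of the gene alone. HK2 had the narrower spread, with an SD of 0.09 log2 units against 0.44 for HK1, which was lowest in replicate 3. HK3, known from blood cells, had 13.97, 24.2 and 20.2, far under the limit on every array.

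The upper part of glycolysis, from glucose 6-phosphate to the triose phosphates, was detected in 6 of 7 genes. GPI, which isomerises glucose 6-phosphate, had signals of 5821, 7612 and 3834. The subunits of phosphofructokinase, the main point of control of the pathway, were all detected. PFKL, the liver-type subunit, had 686, 913 and 511. PFKM, the muscle type, had 1851, 2146 and 1778. PFKP, the platelet type, had 3215, 4585 and 2623. All 3 subunits were highest in replicate 2 and lowest in replicate 3. PFKL lay 1.87 ± 0.20 log2 units (SE, n = 3; limma adjusted p = 2.35e-06) over the limit.

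Of the measured aldolases, which cleave fructose 1,6-bisphosphate, ALDOA was detected and ALDOC was not. ALDOA, the form of muscle and most cells, had signals of 10260.2, 15036.5 and 11529.6. ALDOC, known from brain, had 209.7, 333 and 187, with 2 of 3 arrays above the limit. It lay 0.33 log2 units over the limit with a 95% interval from -0.23 to 0.88 (limma adjusted p = 0.247), and it passed with a limit at the 90th percentile (adjusted p = 0.0163), with the median over probe sets, background genes included (adjusted p = 0.0173), and without suffixed probe sets (adjusted p = 0.0150). Each of these set a lower limit, between 112.8 and 149.0 over the arrays, so they are not separate support. In the other alternatives that kept this order of names the adjusted p of ALDOC ran from 0.104 to 1. TPI1, which interconverts the triose phosphates, had 7402, 10458 and 6973. Another TPI1 probe set had 8531, 8504 and 6281, whereas the only unsuffixed one had 163, 162 and 200.1, above the limit on 1 array, so TPI1 did not pass without suffixed probe sets (limma adjusted p = 0.138).

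The lower part of glycolysis, from glyceraldehyde 3-phosphate to pyruvate, was detected in 5 of 9 genes, with 1 detected gene at every step. GAPDH, which makes the first NADH of the pathway, had signals of 19536, 21098 and 30616. PGK1, the first enzyme to make ATP, had 7872, 8163 and 14319. Both were highest in replicate 3, by more than the gap between replicates 1 and 2. PGAM1, the widely made phosphoglycerate mutase, had 5949.9, 7417 and 5071, whereas its muscle counterpart PGAM2 had 3.19, 8.18 and 12.9. The limma interval of PGAM2 ran from -6.00 to -3.51 log2 units relative to the limit.

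Among the enolases the common form ENO1 was detected and the neuronal and muscle forms ENO2 and ENO3 were not. ENO1 had signals of 13187, 15179 and 16235, a spread of 0.15 log2 units (SD, n = 3). ENO2 had 51.6, 144 and 76.9, and ENO3 had 99.1, 130.4 and 154, with no array above the limit for either gene. Pyruvate kinase, the last step, showed the same division between PKM, the form of muscle and proliferating cells, and PKLR, the form of liver and red cells. PKM had 8462, 10477 and 4043, and its SD of 0.72 log2 units was the largest among the detected members. PKLR had 13.9, 24.1 and 13.3, and its other 2 probe sets were also under the limit on all arrays. The array values do not separate the splice forms M1 and M2 of PKM.

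Lactate dehydrogenase is a tetramer of A and B subunits in most tissues, and the C subunit is known from testis. LDHA had signals of 12416, 15127 and 20484 and lay 6.38 ± 0.28 log2 units (SE, n = 3) over the limit. LDHB had 15003, 15914 and 23161 and lay 6.56 ± 0.28 (SE, n = 3) over it. Both had their highest signal in replicate 3. LDHC had 178, 146 and 171, below the limit on every array but close to it, at -0.19 log2 units with a 95% interval from -0.76 to 0.37. The LDHB probe set carries the cross-hybridising suffix, as do those of PFKL, ALDOA, TPI1, GAPDH and SUCLG2, so related genes and pseudogenes can contribute to these 6 signals. A further 17 members, LDHA and LDHC among them, were read from probe sets with the shared suffix, and the same caution holds for them.

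The 250 bases before the start of the lactate dehydrogenase genes are shown because the A and B genes were detected and the C gene was not, and those of PGK1 because its probe sets disagreed on replicate 3. The PGK1 window belongs to the gene as a whole and cannot bear on that disagreement. All windows shown are from RefSeq (GRCh38.p14), 5′ to 3′ on the strand of the gene. Capitals mark ACGTG on either strand, the core letters of hypoxia response elements; where the capitals read CACGTG, the E-box letters that MYC is known to bind, the match is on both strands. The windows are chr11:18394313-18394562 (+) for LDHA, chr12:21657843-21658092 (-) for LDHB, chr11:18412068-18412317 (+) for LDHC and chrX:78103998-78104247 (+) for PGK1.
LDHA: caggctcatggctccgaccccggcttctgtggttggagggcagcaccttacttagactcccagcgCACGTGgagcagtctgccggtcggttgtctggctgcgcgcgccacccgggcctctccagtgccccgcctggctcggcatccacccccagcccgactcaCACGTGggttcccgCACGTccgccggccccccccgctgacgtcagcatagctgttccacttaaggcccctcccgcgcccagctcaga
LDHB: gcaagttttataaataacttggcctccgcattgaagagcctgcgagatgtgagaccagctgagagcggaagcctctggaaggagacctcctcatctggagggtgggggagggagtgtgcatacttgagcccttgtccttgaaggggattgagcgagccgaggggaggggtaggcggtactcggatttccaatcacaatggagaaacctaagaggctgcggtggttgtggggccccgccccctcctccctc
LDHC: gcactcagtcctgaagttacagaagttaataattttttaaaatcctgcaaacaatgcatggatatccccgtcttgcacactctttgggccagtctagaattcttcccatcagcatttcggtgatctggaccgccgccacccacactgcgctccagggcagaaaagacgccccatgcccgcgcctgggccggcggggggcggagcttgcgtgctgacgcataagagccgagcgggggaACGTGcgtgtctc
PGK1: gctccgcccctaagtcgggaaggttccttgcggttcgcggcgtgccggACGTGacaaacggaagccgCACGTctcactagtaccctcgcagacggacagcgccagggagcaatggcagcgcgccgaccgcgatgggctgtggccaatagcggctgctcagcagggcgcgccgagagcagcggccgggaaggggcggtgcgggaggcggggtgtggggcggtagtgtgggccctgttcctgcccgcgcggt

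LDHA has 3 separate stretches with these letters, beginning 185, 87 and 73 bases before the start, PGK1 has 2, LDHC has 1 and LDHB has none. Windows of this length were listed for 39 of the 40 members. ACGTG occurred in 15 of the 39 (38.5%) and in 18.5% of 35116 promoters. Members had a median GC content of 67.2% against 58% for all promoters. Among detected members 10 of 30 windows held the letters, and among those not detected 5 of 8 did. CACGTG, which contains ACGTG, was found in 5 of 39 windows (12.8%, against 6.35% of all promoters). These are matches of letters and do not show that a factor bound there.

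Pyruvate enters the cycle through the pyruvate dehydrogenase complex or through pyruvate carboxylase, and all 4 measured genes of the complex among the members were detected. PDHA1, the E1 alpha subunit encoded on the X chromosome, had signals of 4463, 4009 and 3473. PDHB, the E1 beta subunit, had 2308, 1569 and 2009. DLAT, the acetyltransferase core, had 1292, 1397 and 1082. On the probe sets used, their replicate SDs were between 0.18 and 0.28 log2 units. Other probe sets above the limit on every array had 627, 459 and 344 for PDHA1 and 766, 671 and 713 for PDHB. For DLAT they had 1285, 1242 and 1218 and 516, 504 and 829. DLD, the dehydrogenase that several mitochondrial complexes share, had 2699, 2051 and 3482. PC, which refills the cycle with oxaloacetate, was not detected with 132, 195 and 117, of which 1 array lay above the limit (-0.38 log2 units, 95% interval from -1.01 to 0.25).

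All 12 measured genes of the citric acid cycle were detected. CS, which condenses acetyl-CoA with oxaloacetate, had signals of 3149.6, 4179 and 2308. MDH2, the mitochondrial malate dehydrogenase that closes the cycle, had 5153, 5355 and 5285. MDH1, its cytosolic counterpart, had 4049, 3795 and 4067. On the probe sets used, the malate dehydrogenases varied least among the detected members, with SDs of 0.03 and 0.06 log2 units for MDH2 and MDH1. The other MDH2 probe set had 485, 530 and 385, above the limit on every array. Its difference of replicate 3 from the mean of replicates 1 and 2 was -0.40 log2 units, against 0.01 for the probe set used.

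Isocitrate dehydrogenase exists as NADP-dependent IDH1 in the cytosol, IDH2 in mitochondria and the NAD-dependent IDH3 of 3 subunits. IDH1 had signals of 3018, 1638 and 2461. IDH2 had 1822, 2529 and 1506. The 2 forms were placed oppositely on the arrays, with IDH1 lowest and IDH2 highest in replicate 2. IDH3A, the catalytic subunit, had 1967, 1298 and 1824, also lowest in replicate 2. IDH3B had 2134, 2301 and 1467. IDH3G had 2030.0, 2249.8 and 1705. On the probe sets used, these 2 regulatory subunits were lowest in replicate 3. Other probe sets above the limit on every array did not all follow. For IDH3B, a probe set with 612, 762 and 791 was highest in replicate 3, and another with 2137, 1845 and 1588 was lowest there. The other IDH3A probe set had 872, 1019 and 879, highest in replicate 2. The other IDH3G probe set had 428, 641 and 268, lowest in replicate 3.

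The remaining steps ran through 2-oxoglutarate and succinyl-CoA. OGDH, the first subunit of the 2-oxoglutarate dehydrogenase complex, had signals of 634, 620.3 and 281 and lay over the limit by 1.35 ± 0.23 log2 units (SE, n = 3; limma adjusted p = 0.000151). DLST, the core of that complex, had 851, 956 and 533. Both were lowest in replicate 3. SUCLG1, the alpha subunit of succinyl-CoA ligase, had 2745, 2897 and 2108. SUCLG2, the GTP-specific beta subunit, had 1105, 803 and 1076. SUCLG2 had a further probe set under the limit on all arrays, with 49.1, 106 and 22.6.

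Agreement between probe sets of a member was checked because the brightest was used. Of 18 detected members with several probe sets, every probe set of 13 exceeded the limit on 3 of 3 arrays, and 5 (27.8%) had one that did not; over all such detected genes the share was 54.8%. The 5 were HK2, TPI1, PGK1, PKM and SUCLG2. The other PKM probe set had 78.8, 109.5 and 156, under the limit on every array. The other HK2 probe set had 85.0, 114 and 94.1. HK2 and PKM therefore rest on 1 probe set each. For the 20 measured members with 1 probe set no such check could be made.

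**Figure D2:**
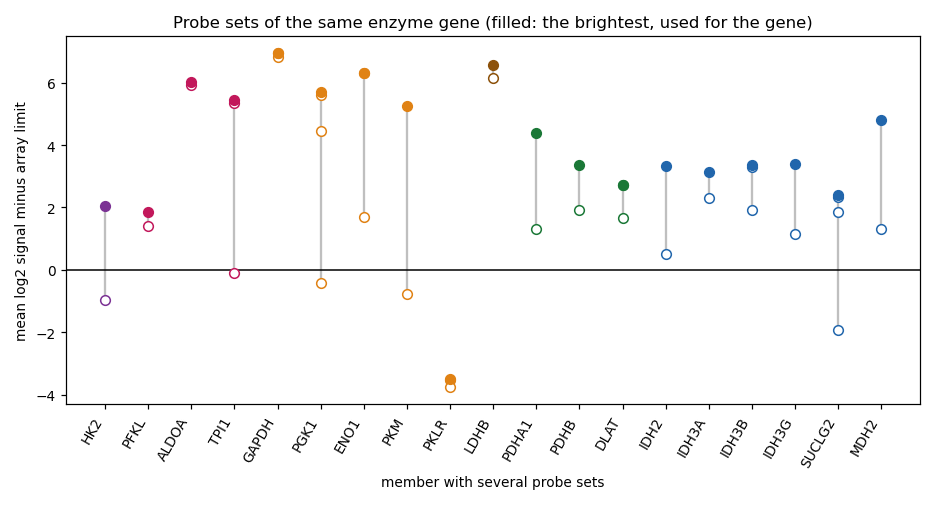
Mean log2 signal minus the array limit for each probe set of the 19 members with several, coloured by role, with the brightest filled. Points of 1 gene are joined by a line; HK2, TPI1, PGK1, PKM, SUCLG2 and PKLR have points under 0, and GAPDH, ALDOA and LDHB have points close together.

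The replicates differed for these genes about as much as for other detected genes, with a median SD of 0.34 log2 units over the 31 detected members and 0.29 over all 5145 detected genes. With 1 array per culture no difference between cultures can be tested, and the following differences are descriptions. Of the 31 detected members 17 had their lowest signal in replicate 3, against 45.0% of all detected genes, and 8 had their highest there, against 33.9%. Under quantile normalization the sign of the difference of replicate 3 from the mean of the others changed for 3 members, ENO1, MDH1 and MDH2.

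Replicate 3 was higher than the others for some glycolytic enzymes and lower for others. On the log2 scale, replicate 3 lay above the mean of replicates 1 and 2 by 0.84 for PGK1, 0.59 for GAPDH and 0.58 for both LDHA and LDHB. It lay below that mean by values of -1.22 for PKM, -1.16 for OGDH, -0.80 for GPI and -0.69 for HK1. Among all detected genes, the share that was higher in replicate 3 was largest in the brightest. Of 108 genes with a signal of 10000 or over in replicates 1 and 2, 82.4% were higher in replicate 3, with a median difference of 0.40. Of 382 genes from 4000 to 10000, 59.4% were, with a median of 0.09. The 1761 genes from 1000 to 4000 and the 2894 under 1000 had medians of -0.09 and -0.10. The difference correlated with the log2 level with r = 0.05 over all 5145 genes and r = 0.35 over the 31 detected members. Both are across genes, which are not independent replicates. Higher in replicate 3 were 4 of 5 members at 10000 or over, 2 of 7 from 4000 to 10000, 5 of 14 from 1000 to 4000 and 2 of 5 under 1000. The part of the signal level in the members' differences was not tested. Quantile normalization, which gives all arrays the same distribution of signals, gave 0.06 for GAPDH, 0.19 for LDHA, 0.15 for LDHB, 0.52 for PGK1, -1.39 for PKM and -1.04 for OGDH.

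**Figure D3:**
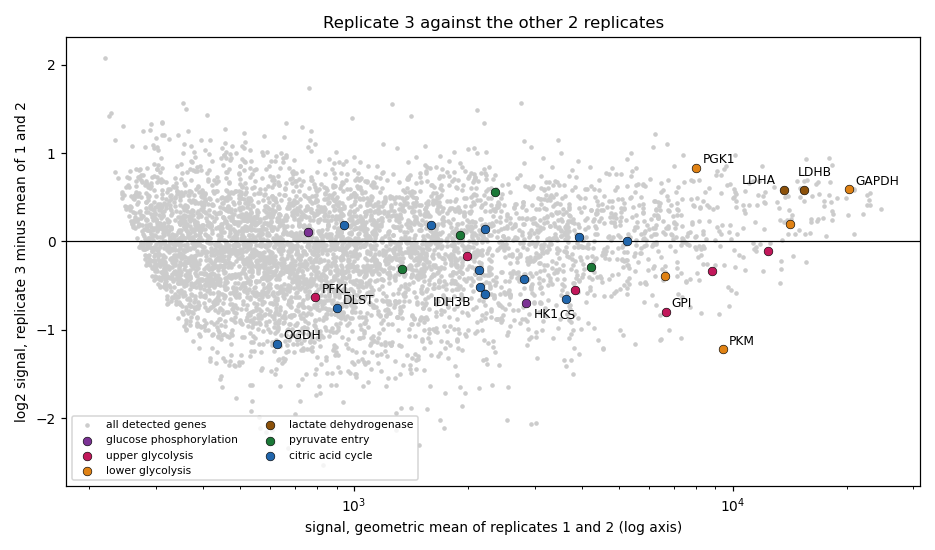
Log2 signal of replicate 3 minus the mean of replicates 1 and 2 (vertical) against the signal in replicates 1 and 2 (horizontal, log axis), for 5145 detected genes in grey and the 31 detected members coloured by role. PGK1, LDHA, LDHB and GAPDH lie near 0.58 to 0.84 among bright genes that are mostly above 0, and PKM, OGDH and GPI lie at -0.80 or lower.

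Where a member had several probe sets above the limit, they did not always share the direction. Of 16 such members 8 had the same sign of the replicate 3 difference on all of them, among them GAPDH with 3 probe sets between 0.59 and 0.64, LDHB with 0.58 and 0.73 and IDH2 with -0.54 and -0.51. The signs differed for ALDOA, PGK1, ENO1, PDHB, DLAT, IDH3A, IDH3B and MDH2. Their values ran from -0.31 to 0.70 for DLAT and from -0.59 to 0.21 for IDH3B, but only from -0.01 to 0.08 for PDHB. For PGK1 the probe set used gave 0.84, and the other 2 above the limit gave 0.04 and -0.07. These 2 had signals of 8161, 10075 and 9332 and of 3743, 4614 and 3946, in that order. The high value of PGK1 in replicate 3 therefore rests on 1 of its 3 probe sets above the limit. All GAPDH and LDHB probe sets carry the cross-hybridising suffix, so their agreement is not independent. No share over all detected genes is given for the count of 8 of 16.

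Replicate 2 lay above replicate 1 for most detected glycolytic enzymes; the difference between groups of enzymes was not tested. Of the 15 detected members of glycolysis and lactate dehydrogenase 14 were higher in replicate 2, all but HK2, with a median difference of 0.31 log2 units. Of the 16 detected members of pyruvate entry and the cycle 8 were higher, with a median of 0.01. Over all detected genes 47.3% were higher, with a median of -0.02. In the upper part of glycolysis all 6 detected genes were higher, from 0.21 for PFKM to 0.55 for ALDOA, and they also were under quantile normalization, which reduced the count for glycolysis and lactate dehydrogenase to 11 of 15 by turning GAPDH, PGK1 and LDHB. The largest differences the other way were those of IDH1 at -0.88, IDH3A at -0.60 and PDHB at -0.56. All probe sets above the limit shared 1 sign for 10 of 16 members, and for TPI1, ENO1, LDHB, DLAT, IDH3A and IDH3B they did not. No share over all detected genes is given for this count. The other bright TPI1 probe set gave -0.0045, so the direction of TPI1 rests on 1 of 2 probe sets, and another IDH3A probe set gave 0.22.

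**Figure D4:**
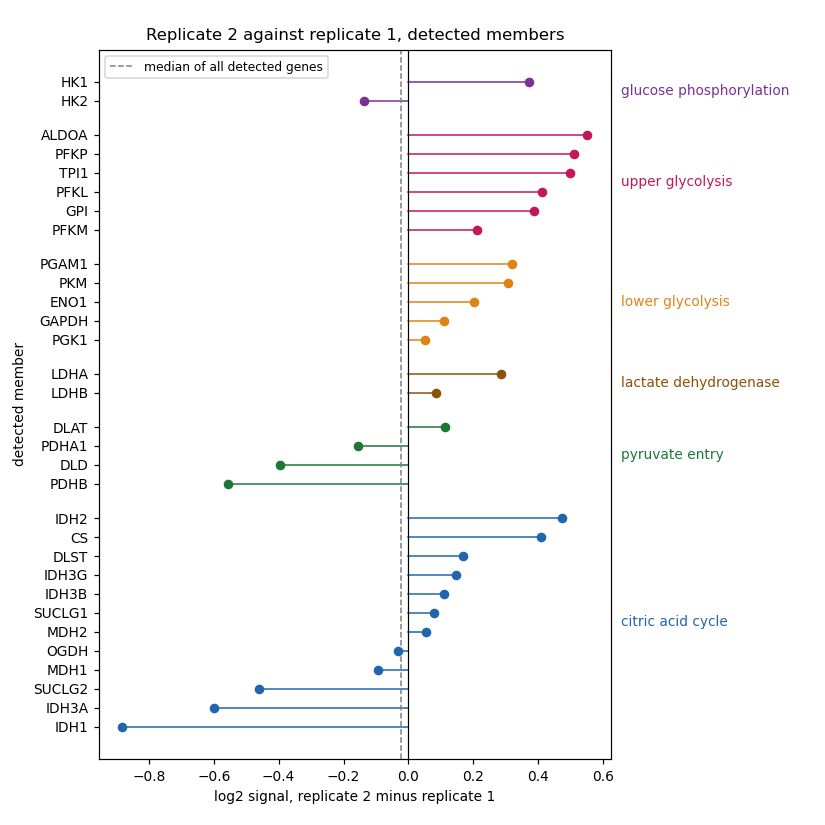
Log2 signal of replicate 2 minus replicate 1 for the 31 detected members, grouped and coloured by role, 1 array each, with the median of all detected genes (-0.02) as a dashed line. The 6 genes of upper glycolysis lie between 0.21 and 0.55, and the cycle genes spread from -0.88 for IDH1 to 0.47 for IDH2.

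Other genes of the pathway were detected less evenly. Of 59 measured genes of 7 related lists 30 were detected (50.8%), beside 43.0% of all genes, and their median lay 0.79 log2 units over the limit. The counts of the single lists stand beside the same 43.0% and were not tested against it. Glucose and monocarboxylate transport had 4 of 9 (44.4%). SLC2A1, the glucose transporter of most cells, had signals of 978, 851 and 1087, but it lay at -0.60 log2 units without suffixed probe sets. BSG, a chaperone of lactate transporters, had 2295, 2791 and 1211. MPC2, a subunit of the mitochondrial pyruvate carrier, had 1983, 1428 and 2217. The glucose transporter of liver, SLC2A2, and the monocarboxylate transporter SLC16A7 were not detected, with mean signals of 7.40 ± 3.35 and 120.1 ± 18.0 (SD, n = 3 each).

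Genes that control pyruvate dehydrogenase had a median of -0.07 log2 units relative to the limit, against 0.04 for all genes. In this list 1 of 7 was detected (14.3%, beside 43.0% of all genes). It was PDHX, a structural component of the complex, with signals of 1512, 1188 and 1215. The 4 kinases that switch the complex off by phosphorylation were not detected. PDK1 had 65.6, 156 and 53.5, and PDK4 had 64.2, 59.6 and 11.1, under the limit on all arrays. PDK2 had 155, 228 and 185, and PDK3 had 235, 178 and 176, each above the limit on 2 of 3 arrays. The 95% interval of PDK3 ran from -0.48 to 0.58 log2 units relative to the limit.

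Of 11 genes that control glycolysis 4 were detected (36.4%, beside 43.0% of all genes). MYC had signals of 3609, 4198 and 3859, and HIF1A, the regulated subunit of HIF-1, had 2327, 1837 and 2825. ARNT, the partner of HIF1A, was not detected with 98.99, 114 and 61.1, nor was EGLN3, a prolyl hydroxylase that marks HIF1A for breakdown, with 232, 131 and 100.4. Of the enzymes that make the phosphofructokinase activator fructose 2,6-bisphosphate, PFKFB3 was detected with 369.7, 270.0 and 341 (limma adjusted p = 0.00387), though not with a limit at the 99th percentile (adjusted p = 0.144). PFKFB1, PFKFB2 and PFKFB4 were not detected, with mean signals of 109.98 ± 21.04, 140.5 ± 4.42 and 22.4 ± 5.17 (SD, n = 3 each).

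Further enzymes of glycolysis and the cycle were detected in 6 of 10 measured genes (60%, beside 43.0% of all genes). SDHA and SDHC, subunits of the succinate dehydrogenase that also serves respiration, had mean signals of 3537 ± 284 and 2069 ± 133 (SD, n = 3 each). BPGM, which makes the regulator of haemoglobin in red cells, had 189 ± 45.2 (SD, n = 3) and was not detected, nor was the lactate dehydrogenase homologue LDHAL6B with 62.7 ± 34.7 (SD, n = 3). In gluconeogenesis 3 of 6 were detected (50%). FBP1, which opposes phosphofructokinase, had signals of 923, 1113 and 749, and PCK2, the mitochondrial phosphoenolpyruvate carboxykinase, had 695, 781 and 739. G6PC1, the glucose 6-phosphatase of liver and kidney, and FBP2, the muscle form, were not detected, with 2.87 ± 2.66 and 8.49 ± 2.25 (SD, n = 3 each).

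The pentose phosphate pathway, which makes NADPH and ribose from glucose 6-phosphate, was detected in 6 of 7 measured genes (85.7%, beside 43.0% of all genes). TKT and TALDO1, the transketolase and transaldolase that link it to glycolysis, had mean signals of 4737 ± 1012 and 6891 ± 1922 (SD, n = 3 each). The transketolase-like TKTL1 had 92.4 ± 16.4 (SD, n = 3) and was not detected. Of the enzymes that branch off from pyruvate and the cycle 6 of 9 were detected (66.7%). ACLY, which turns citrate into cytosolic acetyl-CoA, had 5299, 4353 and 3693, and the mitochondrial transaminase GOT2 had 2676, 2331 and 1674. ME3, a mitochondrial malic enzyme, lay at 0.32 log2 units with 244, 279 and 190.4, above the limit on 3 of 3 arrays, and did not pass the test (limma adjusted p = 0.215). It passed with a limit at the 90th percentile (adjusted p = 0.0139), with the median over probe sets (adjusted p = 0.0123) and without suffixed probe sets (adjusted p = 0.0125). Each of these set a lower limit, between 112.8 and 149.0 over the arrays, so they are not separate support. The glycerol 3-phosphate dehydrogenase GPD1 was not detected, with 26.3 ± 4.08 (SD, n = 3).

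**Figure D5:**
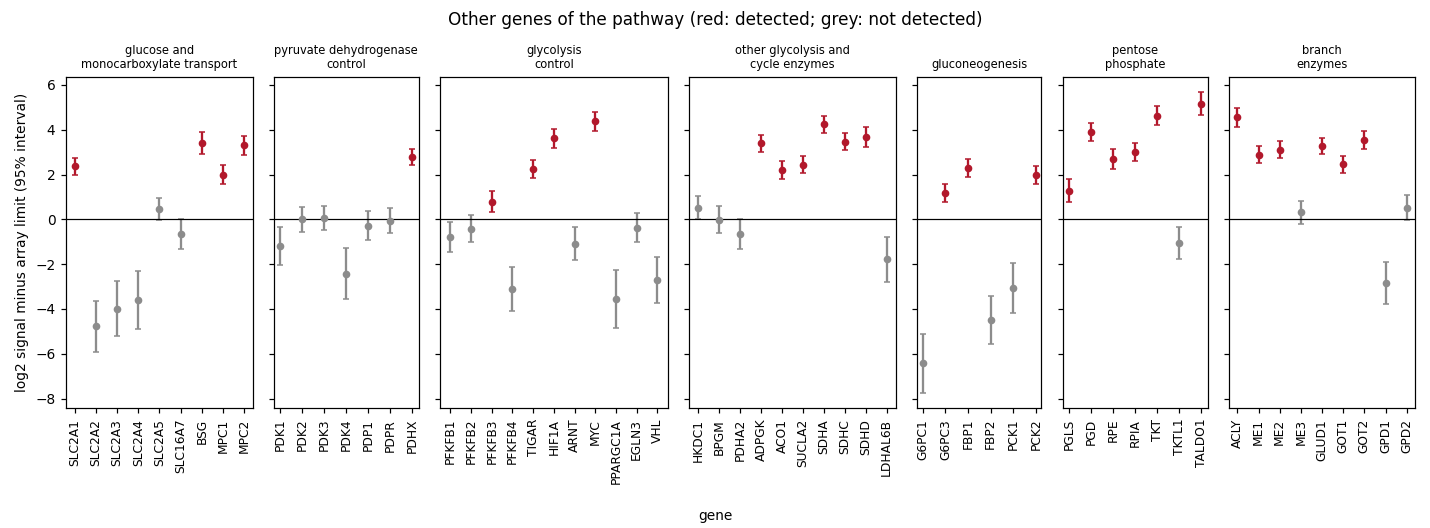
Log2 signal minus the array limit for the 59 measured genes of the 7 related lists, as limma's estimate with its 95% interval (n = 3), red where detected and grey where not. Most points of the pentose phosphate list lie above 0, and 6 of 7 points of the pyruvate dehydrogenase control list lie at or below 0.05.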

How the data were processed

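RNA of 3 cultures was hybridised to Affymetrix arrays, 1 array each. Affymetrix Expression Console 1.1 and the MAS5 method are named, per the submitters' processing notes, and what was deposited is intensity on a linear scale. The mean of the deposited values without the highest and lowest 2% was 500.3 on each array. The scaling target, background step and presence calls are not given in the sources used here. Of 22283 probe sets 6 were empty, and 19065 numbered ones carried 1 gene symbol in the platform annotation, updated through RefSeq gene IDs (GRCh38.p14).

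Values were re-assigned in file order to 15 unnamed rows, 100 probe sets of the first block, 493 low-numbered ones and 21622 others, and 47 rows stayed unnamed. From the deposited intensity, log2 was taken with no pseudocount, and the log2 background limit of the array was subtracted. The limit was the 95th percentile of 67 measured of 80 listed tissue-restricted genes, whose own error does not enter the p-values. The SEs and p-values rest on the spread of log2 signal minus limit between the 3 cultures, moderated towards a trend over all genes. Shifts of the limit between arrays are part of that spread. limma 3.58.1 (R 4.3.3) fitted the mean of each gene with a trended variance, tested one-sided, with Benjamini-Hochberg adjustment over 11963 genes. The number of arrays limits the precision.

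All members are named. From each related list the text names the 2 detected genes with the smallest adjusted p and the 2 others with the largest, ties taken in order of symbol (most genes not detected tie), and also PDK1 to PDK4, PFKFB1 to PFKFB4 and SLC2A1. Members, lists and the order of names were chosen with earlier results of these data known. Alternatives changed the probe set rule, limit, order of names, normalization, pseudocount, filter, variance model and replicates. One further promoter motif that was searched is not reported here.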

Additional observations from a re-analysis of the deposited data

How the results depend on the processing

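The 31 detected members were the same genes under both other limits, quantile normalization, a pseudocount of 16, the filter on low values, the fit without a variance trend, the median over probe sets and without any 1 replicate; the median over probe sets and the limit at the 90th percentile added 1 gene. Leaving out suffixed probe sets gave 18 members and 18 other pathway genes, with fewer genes measured and a limit recomputed from 49 background genes (112.8, 132.9 and 145.9). Of the 31 members 17 passed, TPI1 did not though measured, ALDOC was added, and 16 of the 18 other pathway genes had passed before; SLC2A1 turned to -0.60. With names uniformly displaced the correlation of probe sets was 0.503 and 33 members passed, ENO2 turned to 1.61 and PDK2 to 5.29, ALDOC passed at 5.30, and MPC2 (0.28, adjusted p = 0.391) and PFKFB3 (0.02, adjusted p = 0.937) no longer passed; the stretch 1 row further is then misplaced. Under the names as deposited the correlation was 0.192 and 7 members and 3 other pathway genes passed. The background genes were then renamed too, and the limit rose to 1604, 1630 and 2054, so distances from it are not low signals alone. Log2 distances from the limit were then below 0 for 33 detected genes: HK1 -1.51, HK2 -0.90, GPI -4.83, PFKM -2.57, PFKP -4.90, TPI1 -1.07, GAPDH -2.37, PGK1 -2.70, PGAM1 -5.77, ENO1 -0.82, LDHB -2.49, PDHA1 -3.72, PDHB -0.68, DLAT -0.59, DLD -5.10, CS -4.01, IDH2 -3.58, IDH3A -2.43, IDH3G -2.52, DLST -2.12, SUCLG1 -8.41, MDH1 -5.50, MDH2 -1.69, BSG -4.27, FBP1 -3.99, GOT2 -4.70, HIF1A -1.95, MPC2 -1.04, MYC -2.20, PCK2 -2.75, PDHX -0.52, SDHC -0.43 and TKT -4.43. All genes detected were 5145, and 3324 without suffixed probe sets and 983 under the names as deposited. The median replicate SD of the members was between 0.20 and 0.38 in the alternatives run for it. No paired analysis was possible because there is 1 group. A signal under the limit does not show that a transcript was absent.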
